A study of Chlorocebus sabaeus with 4 samples.

Results

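The collagen chains are the products of the genes whose symbol is COL, a type number, A and a chain number, such as COL4A1. On these arrays 43 such genes were measured by 112 probe sets, out of 19775 genes in all, and they were split by structure into 11 fibrillar chains, 6 basement membrane chains (type IV) and 26 others. Each gene is represented by its brightest probe set, the one with the highest mean over the samples. The tissue was the corpus luteum, the ovarian gland left after ovulation, which secretes progesterone. It came from 2 adult female vervet monkeys (Chlorocebus sabaeus), both 16 years old. Monkey 1031 was placed on calorie restriction and monkey 1030 was fed ad libitum, and each gave 2 samples, numbered 2 and 1, with which the study set out to follow weight change within the animal. Which number was collected first is not given in the labels, so every change below is sample 2 minus sample 1 on the log2 scale. Each diet was carried by 1 animal, so diet and animal cannot be told apart.

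A collagen molecule is a triple helix of 3 chains, held together by a glycine at every 3rd residue. Fibrillar collagens (types I, II, III, V, XI, XXIV and XXVII) pack into fibres that bear tension, whereas type IV collagen forms an open mesh in the basement membranes that underlie endothelium and epithelium. The luteal gland is densely vascular, and the follicle from which it forms is itself enclosed by a basement membrane. In type IV the COL4A1 and COL4A2 chains assemble with each other and are found in nearly all basement membranes, whereas COL4A3, COL4A4 and COL4A5 assemble together, as do COL4A5 and COL4A6, in a more restricted set of tissues.

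The arrays carried probes designed on human genes, and 1 array was run for each combination of animal and sample number. Changes between the numbers of 1 animal therefore carry no p-value and cannot be checked against replicates. A gene is called higher or lower there when it was 2-fold or more apart, which is a rule of size. A level filter at a mean log2 signal of 5.26, the median over all genes, was passed by 26 of the 43 chains and by 9888 genes. Of 10 measured markers of luteal cells 9 passed this filter, among them CYP11A1, the enzyme that starts steroid synthesis, at 9.97 to 12.16. NR5A1, a regulator of steroid genes, lay at 4.02 to 4.67, below the filter, and CYP19A1, the aromatase, came to 4.41 in sample 2 of the ad libitum animal and to 9.92 or more elsewhere. Sample 2 of the ad libitum animal stood apart from the rest. It was 2-fold from each other sample in 9 to 12 of the 43 chains, beside 5.79% to 6.47% of all genes. The other samples were 2-fold from each other in 1 or 2 chains, beside 0.799% to 2.40% of all genes. Every change within the ad libitum animal rests on that array and on the 1 array of sample 1. Bacterial hybridisation controls averaged 10.54 and 10.09 in the calorie restriction animal (sample 2, then sample 1) and 9.85 and 10.58 in the ad libitum animal. The excess of 3′ over 5′ signal of GAPDH, a sign of RNA breakdown, lay between 1.15 and 1.41 in all samples. The part of these technical measures in the results was not tested.

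Type IV chains divided in the ad libitum animal. The widely used pair, COL4A1 and COL4A2, was lower in sample 2, and 3 of the 4 remaining chains, COL4A3, COL4A4 and COL4A6, were higher by 2-fold or more. COL4A1 had a log2 signal of 12.66 and 12.54 in samples 2 and 1 of the calorie restriction animal, and of 11.05 and 12.94 in the ad libitum animal. Sample 2 of the ad libitum animal was thus the lowest of all samples, 3.72-fold below sample 1 (change -1.90). COL4A2 had 11.40 and 11.32 in the calorie restriction animal, and 10.23 and 11.45 in the ad libitum animal, a 2.33-fold lower signal in sample 2 (-1.22). In the calorie restriction animal both chains changed little, by 0.12 and 0.09.

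COL4A3 went the other way. It had 4.59 and 4.27 in samples 2 and 1 of the calorie restriction animal, and 7.08 and 4.49 in the ad libitum animal. Its signal was low and nearly level in 3 samples and 6.05-fold higher in sample 2 than in sample 1 of the ad libitum animal (2.60). COL4A4, its partner, had 4.77 and 6.07 in the calorie restriction animal, and 7.22 and 5.22 in the ad libitum animal. It was 2.46-fold lower in sample 2 of the calorie restriction animal (-1.30) and 4.00-fold higher in that of the ad libitum animal (2.00). COL4A6 followed the same pattern at a lower signal, with 3.52 and 4.33 in the calorie restriction animal and 5.09 and 3.70 in the ad libitum animal (-0.81 and 1.39). COL4A5, the chain that both of the restricted assemblies contain, had 8.34 and 8.88 in the calorie restriction animal and 8.98 and 8.55 in the ad libitum animal, and neither change (-0.53 and 0.43) came to 2-fold. COL4A3 and COL4A6 lay below the level filter, so they entered no fit.

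**Figure D1:**
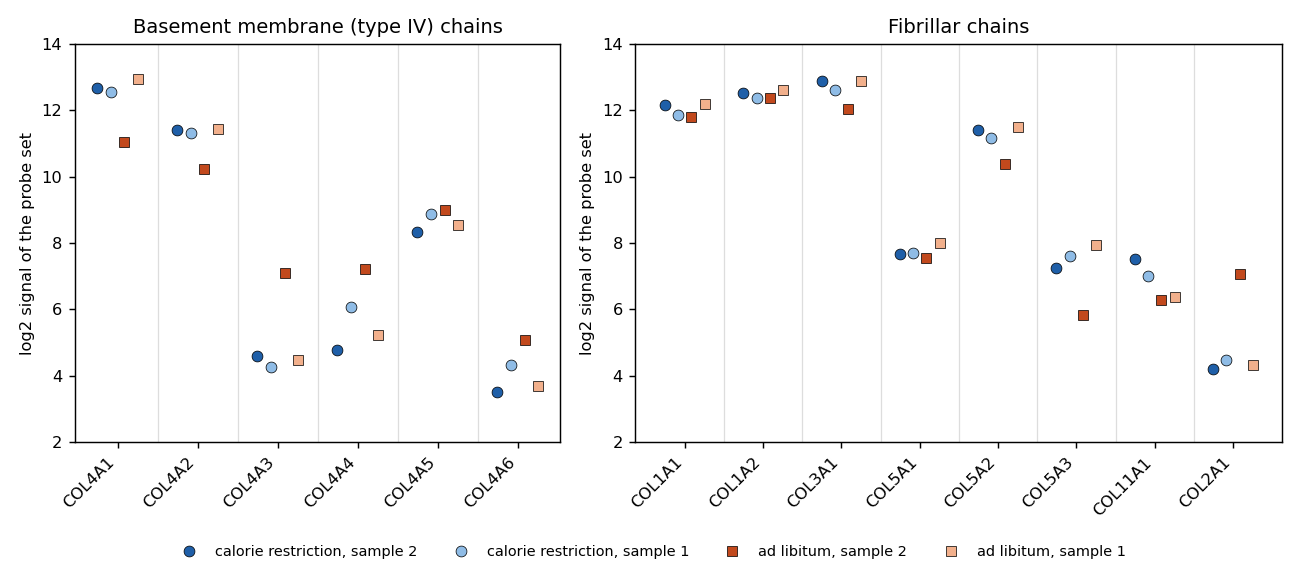
Log2 signal (vertical axis) of each type IV chain (left) and of 8 fibrillar chains (right) in the 4 samples, 1 point a sample. In sample 2 of the ad libitum animal (dark squares) COL4A1 is lowest at 11.05 while COL4A3 and COL2A1 stand alone at 7.08. Signals of different genes come from different probes, so heights are comparable only within a gene.

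The other probe sets of these genes bear on the split. Both probe sets of COL4A1 and both of COL4A2 had their lowest value in sample 2 of the ad libitum animal, and the dimmer one of each gave the larger change there (-2.63 and -2.00). All 7 probe sets of COL4A3 had their highest value in that sample, with changes between 0.32 and 2.60. COL4A4 and COL4A6 rest on 1 probe set each. Their remaining probe sets were dim, with changes of 0.07 to 0.08 for COL4A4 and 0.01 to 0.10 for COL4A6 in the ad libitum animal.

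**Figure D2:**
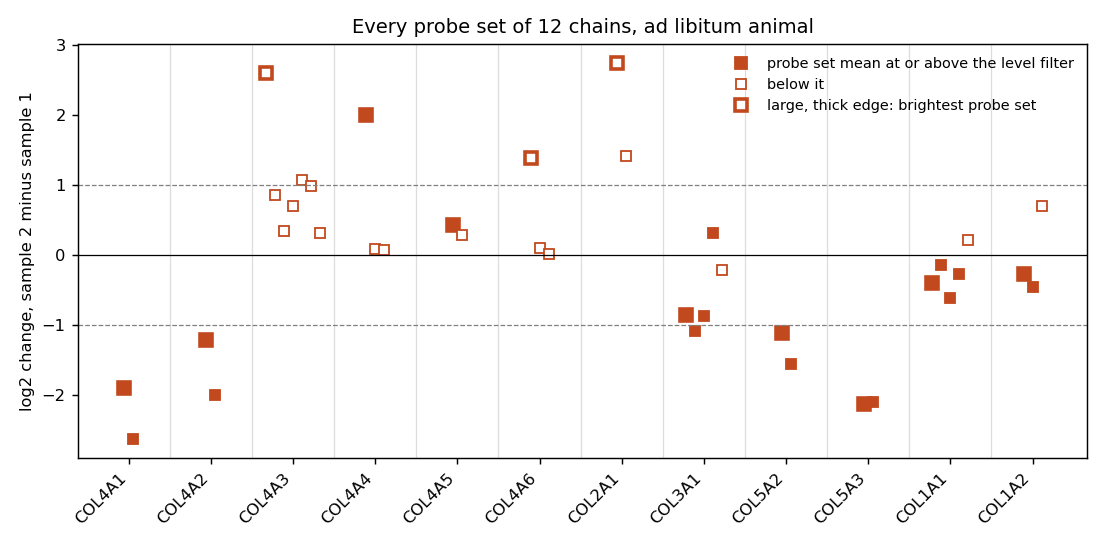
Log2 change of every probe set of 12 chains in the ad libitum animal, sample 2 minus sample 1, with dashed lines at 2-fold. All probe sets of COL4A1 and COL4A2 lie at -1.22 or lower, and all of COL4A3 lie above 0, whereas COL4A4 and COL4A6 have 1 probe set each past 2-fold.

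The type IV genes lie in adjacent pairs, arranged head to head in mammals. In the RefSeq vervet annotation the pairs COL4A1 with COL4A2, COL4A3 with COL4A4 and COL4A5 with COL4A6 had no other protein-coding gene between them. In the ad libitum animal the members of each pair had changes of the same sign: -1.90 and -1.22 in the first, 2.60 and 2.00 in the second, and 0.43 and 1.39 in the third. In the calorie restriction animal COL4A3 and COL4A4 had opposite signs (0.32 and -1.30). COL3A1 and COL5A2, fibrillar chains that are also neighbours, changed by 0.25 and 0.25 in the calorie restriction animal and by -0.85 and -1.11 in the ad libitum animal. The remaining neighbours, all below the level filter, had opposite signs in the calorie restriction animal. COL6A5 and COL6A6 changed by -0.21 and 0.25 there, and COL19A1 and COL9A1 by -0.35 and 0.78. In the ad libitum animal these pairs changed by 0.08 and 0.62, and by 0.07 and 0.35.

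Among fibrillar chains, those of type I collagen, the most abundant one in connective tissue, were within 2-fold in both animals. COL1A1, the main chain of type I collagen, had 12.17 and 11.86 in samples 2 and 1 of the calorie restriction animal, and 11.79 and 12.18 in those of the ad libitum animal. Its partner COL1A2 had 12.53 and 12.36 in the calorie restriction animal and 12.36 and 12.63 in the ad libitum animal. In the brightest probe set of each gene the highest and the lowest sample were those of the ad libitum animal. The changes there were -0.39 for COL1A1 and -0.27 for COL1A2. In the next brightest probe set of each, the lowest was sample 1 of the calorie restriction animal (11.21 and 10.56). The 4 COL1A1 probe sets at or above the level filter gave -0.01 to 0.91 in the calorie restriction animal and -0.61 to -0.13 in the ad libitum animal. A dim probe set of COL1A2, the only one left when those of less specific design were dropped, gave 0.70 in the ad libitum animal. COL3A1, the chain of type III collagen in skin and vessel walls, had 12.87 and 12.63 in the calorie restriction animal, and 12.03 and 12.88 in the ad libitum animal. Its change of -0.85 in the ad libitum animal was 1.80-fold and under the threshold. One of its other probe sets disagreed, with 0.32 in the ad libitum animal and 1.21, or past 2-fold, in the calorie restriction animal.

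Type V collagen regulates the width of type I fibres, and 2 of its 3 chains were lower in sample 2 of the ad libitum animal. COL5A3 had 7.25 and 7.62 in the calorie restriction animal, and 5.82 and 7.94 in the ad libitum animal, where it was 4.37-fold lower (-2.13). COL5A2 had 11.42 and 11.17 in the calorie restriction animal, and 10.40 and 11.51 in the ad libitum animal, where it was 2.16-fold lower (-1.11). COL5A1 had 7.67 and 7.69 in the calorie restriction animal, and 7.54 and 8.0 in the ad libitum animal, a change of -0.46. All 7 probe sets of the type V genes had lower values in sample 2 than in sample 1 of the ad libitum animal.

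COL2A1, the chain of cartilage collagen, was the 1 fibrillar chain past 2-fold in the other direction. Fibrillar chains with values above 0 but under 2-fold in the ad libitum animal were COL27A1 (0.67), COL11A2 (0.32) and COL24A1 (0.24). COL2A1 had 4.21 and 4.47 in samples 2 and 1 of the calorie restriction animal, and 7.08 and 4.33 in the ad libitum animal, 6.72-fold higher (2.75), and its other probe set gave 1.41. It lay below the level filter, and it is named because its values were seen to stand out. Sample 2 of the ad libitum animal was at least 2-fold above every other sample in 3 of the 43 chains, COL2A1, COL4A3 and COL4A4, as it was in 1.22% of all genes. It was at least 2-fold below every other sample in 4, COL4A1, COL4A2, COL5A3 and COL8A1, as it was in 1.81% of all genes. Sample 1 of the ad libitum animal was at least 2-fold above every other sample in 1 chain, COL21A1, as it was in 0.405% of all genes.

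Of the 26 other chains, 1 was higher and 3 were lower in sample 2 of the ad libitum animal. COL15A1 and COL18A1 are multiplexins, which lie in the zone beside basement membranes and whose ends can be cut off as inhibitors of vessel growth. COL15A1 had 10.25 and 10.36 in the calorie restriction animal, and 9.45 and 10.87 in the ad libitum animal (2.67-fold lower, -1.42). COL18A1 had 8.06 and 8.14 in the calorie restriction animal, and 7.30 and 8.20 in the ad libitum animal, a change of -0.91 that was under 2-fold. In the calorie restriction animal they changed by -0.11 and -0.08. The other probe set of COL18A1, also above the level filter, gave 0.25 there and -0.30 in the ad libitum animal.

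COL8A1, of the short-chain network made by vascular cells, had 8.11 and 8.03 in the calorie restriction animal, and 6.17 and 8.06 in the ad libitum animal. It was level in 3 samples and 3.70-fold lower in sample 2 of the ad libitum animal (-1.89). This rests on its brightest probe set, as the others were dim and gave -0.44 and -0.11 there. COL21A1, a FACIT collagen (a type that sits on fibrils without forming them), had 6.01 and 5.55 in the calorie restriction animal, and 4.63 and 7.22 in the ad libitum animal. Its change of -2.59, or 6.02-fold, was the largest decrease of any chain, and sample 1 of the ad libitum animal was the high one. COL13A1, a transmembrane collagen, had 5.89 and 6.41 in the calorie restriction animal, and 6.85 and 5.79 in the ad libitum animal (-0.52 and 1.06), and all 3 of its probe sets had the same pair of signs. The second of them above the level filter gave 0.32 in the ad libitum animal. COL16A1, another FACIT collagen, had the largest increase in the calorie restriction animal, 0.83 or 1.78-fold, with 8.49 and 7.65 in samples 2 and 1.

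Of the chains not given in every sample, 5 passed the level filter (COL12A1, COL16A1, COL26A1, COL27A1 and COL7A1), with changes between -0.27 and 0.83 in the calorie restriction animal and between -0.22 and 0.69 in the ad libitum animal. A further 14 lay below it, at mean signals of 2.37 to 5.04. Their changes ran from -0.44 to 0.78 in the calorie restriction animal and from -0.76 to 0.62 in the ad libitum animal. They included 2 of the 3 chains of type IX collagen and the minor type VI chains COL6A5 and COL6A6.

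**Figure D3:**
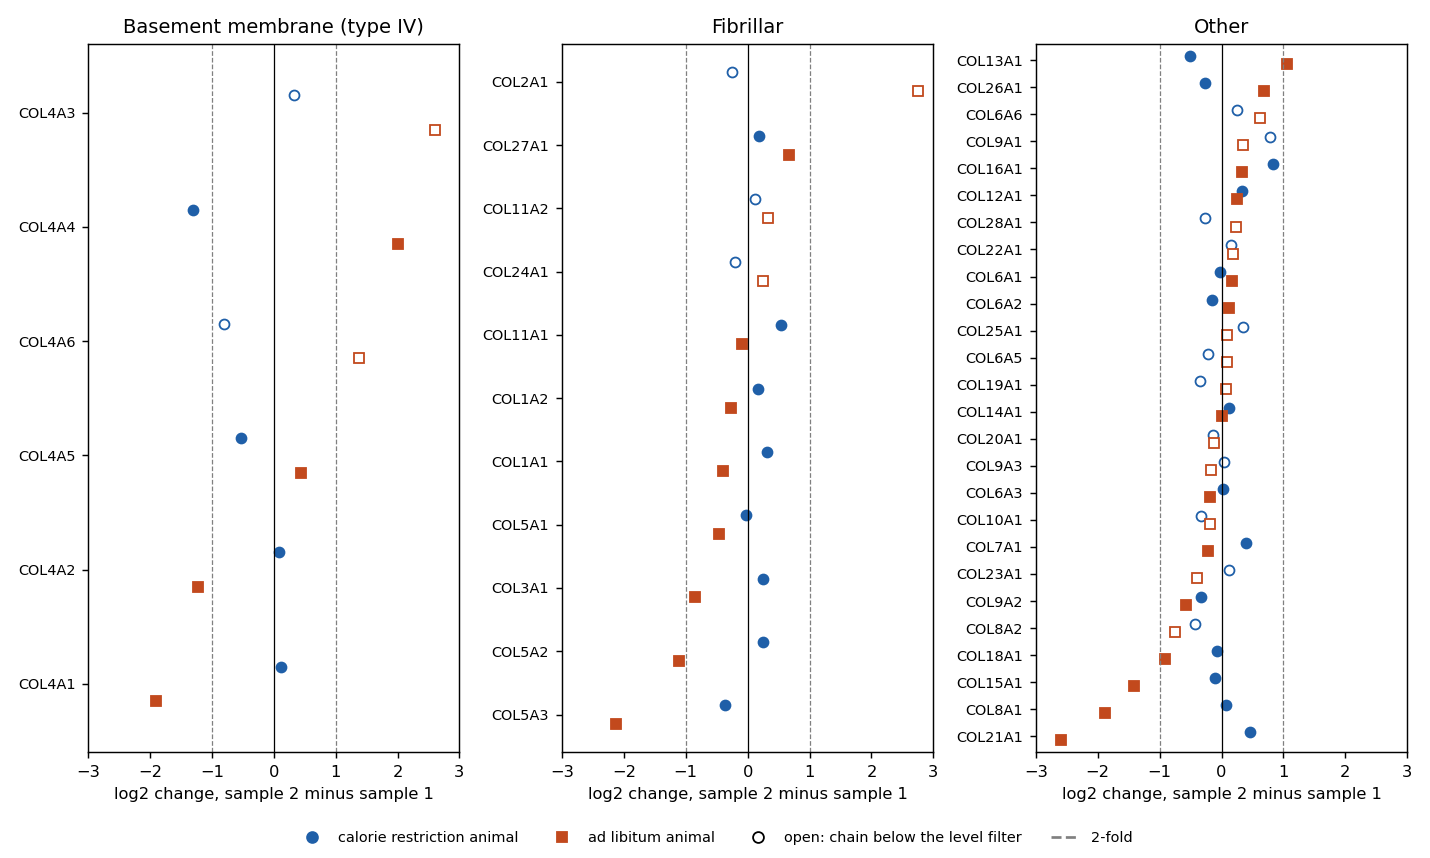
Log2 change of all 43 chains, sample 2 minus sample 1, by class, with circles for the calorie restriction animal, squares for the ad libitum animal, open symbols for chains below the level filter and dashed lines at 2-fold. Squares spread from -2.59 to 2.75, whereas all circles but that of COL4A4 lie within 2-fold.

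In the calorie restriction animal 0 of the 26 chains past the level filter were 2-fold higher and 1, COL4A4, was 2-fold lower, where 0.496% and 0.738% of all genes past the filter were. In the ad libitum animal 2 of the 26 were higher, COL4A4 and COL13A1, and 7 were lower, where 2.67% and 6.58% of genes were. With the filter left out, over all 43 chains, the counts were 0 higher and 1 lower in the calorie restriction animal, beside 0.349% and 0.45% of all genes. They were 5 higher and 7 lower in the ad libitum animal, beside 1.96% and 3.83% of all genes. Several probe sets at or above the filter were present for 16 chains. Within a chain these all had the same sign in 8 of the 16 in the calorie restriction animal and in 14 in the ad libitum animal. COL26A1 and COL3A1 were those that disagreed in the ad libitum animal.

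By class, over all members, fibrillar chains had a median change of 0.16 in the calorie restriction animal and -0.27 in the ad libitum animal, with 1 of 11 higher and 2 lower at 2-fold in the ad libitum animal. Type IV chains had medians of -0.22 and 0.91, with 3 of 6 higher and 2 lower in the ad libitum animal, so their median lies between a low and a high group and describes neither. Over the 4 of them past the level filter the median in the ad libitum animal was -0.39, with 1 higher and 2 lower. Other chains had medians of 0.00 and 0.04, with 1 of 26 higher and 3 lower. The median over all genes was 0.00 in the calorie restriction animal and 0.02 in the ad libitum animal. When the multiplexins were counted with type IV, the median of that class in the ad libitum animal was -0.24. The differences between classes were not tested.

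Between animals the question was whether the calorie restriction animal differed from the ad libitum animal over both samples of each. With limma fitted across all genes past the filter, 0 of 26 chains and 0% of 9888 genes had a Benjamini-Hochberg adjusted p under 0.05. At an unadjusted p of 0.05, 4 chains passed, beside 5.28% of genes. Such p-values reflect how the samples of each animal scatter, and say nothing of how far other animals on the same diet would differ. When sample 1 of the ad libitum animal was left out, so that sample 2 alone stood for it, 5 of 26 chains passed, beside 4.79% of genes. They were COL4A1 (estimate 1.55), COL4A2 (1.13), COL5A3 (1.62), COL8A1 (1.90) and COL9A2 (1.45). All 5 were higher in the calorie restriction samples than in sample 2 of the ad libitum animal. The left-out sample 1 was above both calorie restriction samples in COL4A1 (12.94), COL4A2 (11.45) and COL5A3 (7.94). It was between them in COL8A1 (8.06) and below both in COL9A2 (6.06). When any other single sample was left out, 0 chains passed.

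The samples of the animals did not overlap in 6 of the 26 chains, with 2 higher and 4 lower in the calorie restriction animal, beside 16.6% and 18.7% of genes past the filter. In neither direction was this more frequent among the chains than among all genes past the filter. The 4 lower ones included COL6A1, COL6A2 and COL6A3 of type VI collagen, which forms beaded filaments around cells. The type VI chains COL6A5 and COL6A6, below the filter at mean signals of 2.37 and 2.56, differed by 0.21 and -0.29. COL6A3 had 10.91 and 10.88 in samples 2 and 1 of the calorie restriction animal, and 11.64 and 11.82 in those of the ad libitum animal. Its mean was 10.90 ± 0.019 in the calorie restriction animal and 11.73 ± 0.13 in the ad libitum animal (SD, n = 2 each), a difference of -0.83 (SE 0.19, limma adjusted p = 0.706). COL6A1 had 7.47 and 7.50 in the calorie restriction animal, and 8.25 and 8.08 in the ad libitum animal (-0.68, limma adjusted p = 0.828). COL6A2 had 7.28 and 7.44 in the calorie restriction animal, and 7.88 and 7.76 in the ad libitum animal (-0.46, limma adjusted p = 0.879). COL6A1, COL6A2 and COL6A3 form 1 molecule. The brightest probe set of each was lower in both calorie restriction samples than in either ad libitum sample, although none passed the test. In the other probe set of COL6A2, also above the level filter, the samples overlapped. It had 7.21 and 6.95 in the calorie restriction animal, and 7.94 and 7.14 in the ad libitum animal. COL6A1 has 8 probe sets, most of them below the level filter and 4 of them with a higher mean in the calorie restriction animal, and their average gave a difference of -0.13.

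COL14A1, a FACIT collagen of dense connective tissue, was the remaining lower chain, with 7.10 and 6.98 in the calorie restriction animal and 7.38 and 7.38 in the ad libitum animal (-0.34, limma adjusted p = 0.912). Its next brightest probe set gave -1.40. The higher chains were COL11A1, of type XI collagen, and COL9A2, of type IX. COL11A1 had 7.53 and 7.0 in the calorie restriction animal, and 6.28 and 6.38 in the ad libitum animal (0.93, limma adjusted p = 0.828). COL9A2 had 6.78 and 7.11 in the calorie restriction animal, and 5.49 and 6.06 in the ad libitum animal (1.17, limma adjusted p = 0.706). Its other probe set, below the level filter, gave -0.08, and the average of its probe sets gave 0.54. COL9A1 and COL9A3, which assemble with COL9A2, lay below the level filter and had the opposite sign, with differences of -0.77 and -0.50. Their samples did not overlap either. COL2A1, found with these types in cartilage, differed by -1.37, and its samples overlapped.

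**Figure D4:**
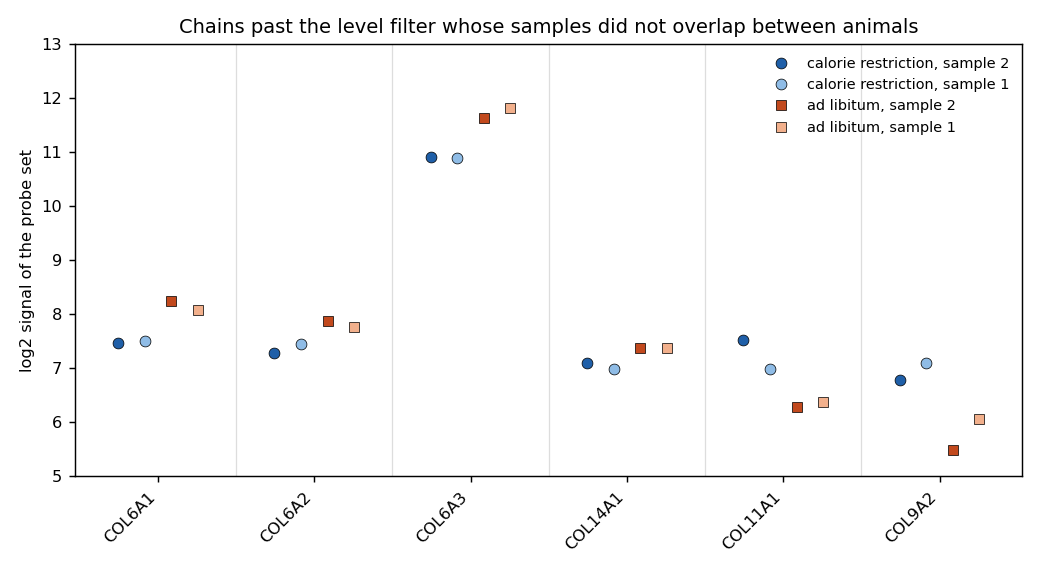
Log2 signal (vertical axis) of the 6 chains past the level filter whose samples did not overlap between animals, 1 point a sample. COL6A1, COL6A2, COL6A3 and COL14A1 are lower in both samples of the calorie restriction animal (circles), and COL11A1 and COL9A2 are higher.

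When both animals were fitted together with the animal as a block, limma called 0 chains and 0% of genes (adjusted p under 0.05) for changes common to the animals, and likewise 0 chains and 0% of genes for changes that were opposed. At an unadjusted p of 0.05 the common change gave 1 chain, COL5A3, lower in sample 2 of both animals, beside 1.82% of genes. The opposed change gave 3, COL4A4, COL13A1 and COL21A1, beside 7.46% of genes. COL4A4 had the largest gap between the changes of the animals, -3.30, with a limma adjusted p of 0.525. These fits leave 1 residual degree of freedom.

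Collagen needs a dedicated set of enzymes and chaperones in the endoplasmic reticulum. Of 19 measured genes for folding and modification, 0 were 2-fold apart in the calorie restriction animal (median 0.08), and 7 were lower and 0 higher in sample 2 of the ad libitum animal (median -0.71). Over all genes 3.83% were lower and 1.96% higher there. P3H3 (0.19), CRTAP (0.22) and P4HA3 (0.02) had values above 0 in the ad libitum animal. P3H2, a prolyl 3-hydroxylase that acts on type IV chains, changed by 0.08 in the calorie restriction animal and by -2.35, or 5.11-fold, in the ad libitum animal. P4HA2, a catalytic subunit of prolyl 4-hydroxylase, had 8.48 and 8.48 in the calorie restriction animal, and 6.70 and 8.98 in the ad libitum animal (-2.28). In both genes, sample 2 of the ad libitum animal was the low one.

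The other lower folding genes of the ad libitum animal included a pair of lysyl hydroxylases. PLOD2, which makes the hydroxylysines used in crosslinks, changed by -1.77, PLOD3 by -1.19, P4HB, the shared subunit of prolyl 4-hydroxylase, by -1.45, the prolyl isomerase FKBP14 by -1.20, and P3H4 by -1.17. In the calorie restriction animal these 5 ran from 0.07 to 0.53. SERPINH1, the collagen chaperone HSP47, changed by 0.04 in the calorie restriction animal and by -0.73 in the ad libitum animal, and P4HA1, the other common prolyl 4-hydroxylase subunit, by -0.11 and -0.36.

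Of 15 genes for procollagen processing and crosslinking, 0 were 2-fold apart in the calorie restriction animal (median 0.25), and 6 were lower and 0 higher in the ad libitum animal (median -0.73), beside the same 3.83% and 1.96% of all genes. The lower ones were PCOLCE2 (-2.38) and PCOLCE (-1.34), which enhance removal of the C-terminal propeptide, and the crosslinking enzyme LOXL2 (-2.17). ADAMTS3 (-1.47), a remover of N-terminal propeptides, TLL2 (-1.42) and PXDN (-1.15), the peroxidase that crosslinks type IV collagen, completed them. LOX, the lysyl oxidase, changed by 0.64 in the calorie restriction animal and by -0.73 in the ad libitum animal.

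Of 9 collagen receptors, ITGA1 (-1.86), the integrin chain for type IV collagen, and ITGA2 (-1.26) were lower in the ad libitum animal, and ITGA2 (-1.54) was lower in the calorie restriction animal. Of 11 degradation genes, the protease CTSK (2.47) and the gelatinase MMP9 (1.80) were higher and the inhibitor TIMP1 (-3.59) lower in the ad libitum animal, and MMP9 (-1.51) was lower in the calorie restriction animal. The collagenases MMP1, MMP8 and MMP13 lay below the level filter. Of 9 genes for TGF-beta signalling, its regulators and matrix induction, CCN2 (-1.95), SKIL (-1.64) and TGFB1 (-1.01) were lower in the ad libitum animal. In the calorie restriction animal 0 of them were 2-fold apart. Over all genes 1.96% were higher and 3.83% lower in the ad libitum animal, and 0.349% and 0.45% in the calorie restriction animal. In none of these 5 lists did a gene past the level filter pass limma's test between animals. Genes below the filter, P3H4, TLL2 and ITGA2 among them, entered no fit.

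**Figure D5:**
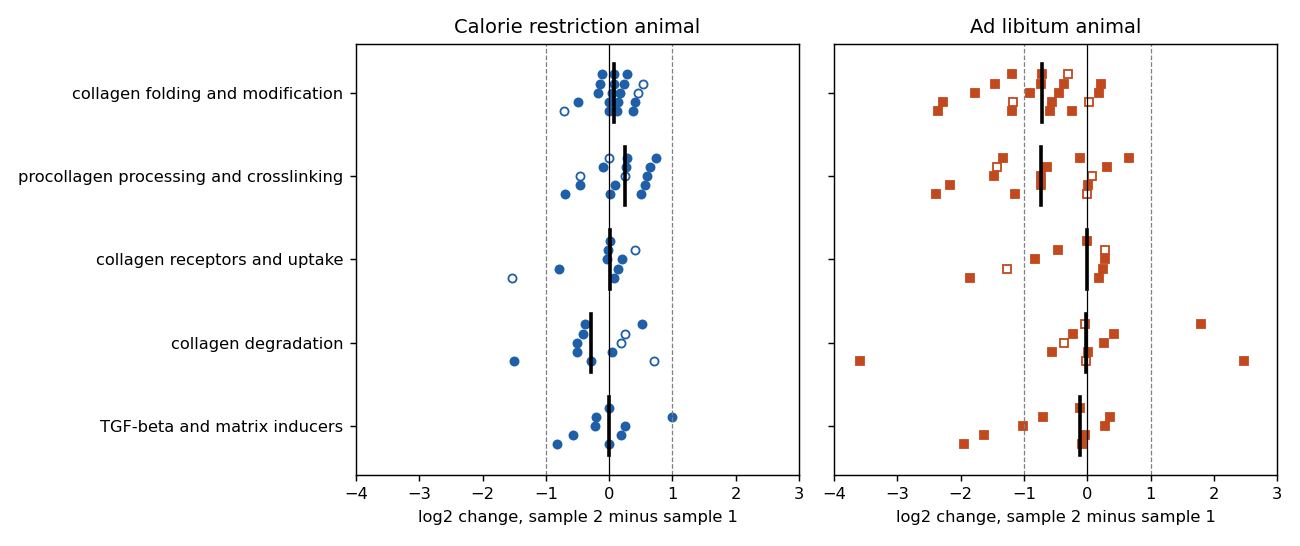
Log2 change, sample 2 minus sample 1, of each measured gene of 5 lists in the calorie restriction animal (left) and the ad libitum animal (right), with black bars at list medians, open symbols below the level filter and dashed lines at 2-fold. The medians of the folding and processing lists lie at 0.08 and 0.25 on the left and at -0.71 and -0.73 on the right.

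Markers of several cell types moved with these results, and in bulk tissue fewer cells of a type and less RNA per cell cannot be told apart. The counts of markers stand beside 0.349% of all genes higher and 0.45% lower in the calorie restriction animal, and 1.96% higher and 3.83% lower in the ad libitum animal. Of 15 endothelial markers, 0 were 2-fold higher and 1 lower in the calorie restriction animal, and 0 were higher and 7 lower in the ad libitum animal, with CDH5 at -0.54 and -1.78. They averaged a log2 signal of 7.44 and 7.77 in the calorie restriction animal (sample 2, then sample 1), and of 6.29 and 7.26 in the ad libitum animal. Of 10 luteal steroidogenic markers, 4 were higher in the calorie restriction animal and 9 lower in the ad libitum animal, with mean signals of 9.86 and 9.15, and of 7.33 and 10.71. Thus both lists were lowest where COL4A1, COL4A2, COL15A1 and COL8A1 were lowest. Sample 2 of the ad libitum animal was also the lowest in COL18A1, COL21A1 and the fibrillar chains COL3A1, COL5A2 and COL5A3, among others. The lists of fibroblast and red blood cell markers also had their lowest mean signals there, at 8.25 and 6.22.

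Fibroblast markers gave no single direction. Of 12, 1 was higher in the calorie restriction animal, and 2 were higher and 4 lower in the ad libitum animal, while DCN, or decorin, changed by 0.10 and -0.28. Smooth muscle and pericyte markers included 3 of 14 higher in the calorie restriction animal, and 2 higher and 3 lower in the ad libitum animal. The higher ones in the ad libitum animal were LMOD1 (1.59) and MYH11 (1.01). The lower ones were MCAM (-1.11) and the pericyte genes RGS5 (-1.20) and KCNJ8 (-2.67). PDGFRB (-0.29), NOTCH3 (-0.32) and CSPG4 (-0.79) stayed under 2-fold there. Macrophage markers had 1 of 13 lower in the calorie restriction animal, and 3 higher and 1 lower in the ad libitum animal.

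Lists whose mean signal was highest in sample 2 of the ad libitum animal, as COL4A3, COL4A4 and COL2A1 were, are those of oocytes, theca and macrophages. The macrophage list averaged 7.11 and 7.33 in the calorie restriction animal (sample 2, then sample 1), and 7.53 and 7.06 in the ad libitum animal. Of 10 oocyte markers, 0 were 2-fold apart in the calorie restriction animal and 3 were higher in the ad libitum animal. ZP4, an egg coat protein, had 4.13 and 4.44 in the calorie restriction animal, and 8.30 and 4.65 in the ad libitum animal, and BMP15, an oocyte growth factor, had 3.0 to 3.32 in all samples. All 5 measured theca and interstitial markers were higher in the ad libitum animal and 2 were lower in the calorie restriction animal. They averaged 6.77 and 8.0 in the calorie restriction animal (sample 2, then sample 1), and 9.70 and 7.96 in the ad libitum animal. Of 8 surface epithelium markers, 1 was higher in the calorie restriction animal and 2 were lower in the ad libitum animal. Red blood cell markers had 1 of 4 lower in the ad libitum animal. The part of these cell types in the collagen results was not tested.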

How the data were processed

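RNA of 4 corpus luteum samples was hybridised to 1 array each, per the labels' protocols. The authors deposited 1 log2 signal for each probe set, made with Affymetrix Power Tools and RMA per the submitters' processing notes, with versions and settings not given in the sources used here. RMA quantile normalisation gives all arrays the same distribution, so changes are relative to the other genes of an array (median log2 signal 3.96 to 4.00). Precision is limited by the number of arrays. Of 54675 probe sets, 41097 carried 1 gene symbol and were used. COL13A1 was the only 1 of 43 chains without a symbol match in the RefSeq vervet annotation (mChlSab1.0.hap1), which was used for names and for which genes neighbour each other, and from which no coordinate is printed. Probe sets shared by near-identical genes were not separated.

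Fits used limma 3.58.1 in R 4.3.3 (lmFit, eBayes with a trend, Benjamini-Hochberg over 9888 genes, adjusted p under 0.05) and were tested on simulated data. Members, lists and markers were chosen with earlier results of these data known. Values in every sample were given for 17 set chains and for others past the filter and 2-fold apart. Genes of the pathway lists past 2-fold, and SERPINH1, P4HA1, PLOD2 and LOX, were named, mostly by their changes. COL2A1, COL16A1 and the chains of the comparison between animals were added after their values were seen. Alternatives covered the level filter, normalisation, choice of probe sets, fold threshold, trend, the block and left-out samples. The changes of the animals had a Pearson r of -0.27 over 9888 genes, a weak lean to opposite directions. Whether the sample numbers of the animals correspond is not given in the labels.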

Additional observations from a re-analysis of the deposited data

Results flagged for a closer look

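COL4A4 and COL4A6 were at least 1.5-fold apart in opposite directions within the animals. COL4A4 changed by -1.30 in the calorie restriction animal and by 2.00 in the ad libitum animal. COL4A6 changed by -0.81 in the calorie restriction animal and by 1.39 in the ad libitum animal. They were 2 of 43 chains, or 4.65%, with such a pair of changes, beside 1.65% of all genes. The opposed fit gave COL4A4 a limma adjusted p of 0.525, and for COL4A6, below the level filter, the difference was not tested.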

How the results depend on the processing

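The count of chains 2-fold apart in the calorie restriction animal (1 lower, 0 higher) was 0 with the stricter level filter, when all probe sets of a gene were averaged, and at 3-fold. It was 2 at 1.5-fold, with 1 higher, and 2 without probe sets of less specific design, where COL3A1 became the 1 higher chain. In the ad libitum animal the 9 chains came to 5 at 3-fold. The 2 higher ones came to 5 without the level filter, 0 with the stricter one, 1 (COL13A1) with averaged probe sets, 4 at 1.5-fold and 1 at 3-fold. Without less specific probe sets they came to 4, COL2A1, COL4A3, COL4A4 and COL14A1, and COL13A1, all of whose probe sets are of that design, was lost. The 7 lower ones came to 4 at 3-fold and to 6 or more under the other alternatives. COL4A4 came under 2-fold in both animals with averaged probe sets. So did COL8A1 (-0.81), COL4A3 (0.98) and COL4A6 (0.50) in the ad libitum animal. The fibrillar median in the ad libitum animal was 0.075 without less specific probe sets, and the type IV median was 0.43 with averaged probe sets and -0.24 with multiplexins added. Cyclic loess and repeated quantile normalisation moved 0 of 21 named changes by 0.5 or more in either animal. The cause of these moves was not tested, except that a filter or fold threshold alters the count by its construction.

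Between animals, leaving out 1 sample in turn gave 0 to 5 chains. The 5 came without sample 1 of the ad libitum animal, where the ad libitum side is sample 2 alone and 474 genes passed, and were COL4A1, COL4A2, COL5A3, COL8A1 and COL9A2. That lone sample is assumed to vary like the others. Without sample 2 of the ad libitum animal 0 passed. With the sample number as a replicate block 0 chains passed, and 0 with crossed numbers, a pairing added after seeing the data. The common and opposed counts stayed at 0 under every alternative run. The change in the ad libitum animal needs both of its samples, so it has no value without sample 2.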
